A study of Rattus norvegicus with 8 samples.

Results

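The miR-192, miR-194 and miR-215 family was followed in the renal cortex of male rats, in which the mineralocorticoid hormone deoxycorticosterone acetate (DOCA) and a high-sodium diet were given after nephrectomy. All rat probes for these miRNAs were taken whatever their arm, which gave 5 of the 758 miRNAs on the array: rno-miR-192-5p, rno-miR-192-3p, rno-miR-194-5p, rno-miR-194-3p and rno-miR-215, written here without the species prefix. The rule used names only and no measured value, but it was chosen with earlier results of these data known. Of the 5, miR-192-5p, miR-194-5p and miR-192-3p were among the 242 miRNAs bright enough to be tested, while miR-194-3p and miR-215 were too dim.

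The study hybridised 8 one-colour miRNA arrays from Agilent, and each of its 4 groups had 2. SHAM rats had a sham operation and a diet with 0.50% sodium. UNX rats were nephrectomized and received the same diet with injections of the oil vehicle. DOCA rats were nephrectomized and received 1.5% sodium, DOCA at 8 mg/kg 2 times a week, and intravenous vehicle. DOCA-EVs rats were treated like the DOCA rats, but their weekly intravenous injections, begun in week 2 after nephrectomy, held extracellular vesicles of adipose mesenchymal cells. Per the labels' protocols the cortex was taken at 9 weeks after nephrectomy, whereas the sample descriptions give 8 weeks. The labels call the arrays replicates without saying that each came from its own rat, so the p-values measure the spread between these arrays.

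miR-192 and miR-194 are processed from shared primary transcripts, as are miR-215 and the other copy of miR-194. They are enriched in proximal tubule, intestine and liver, where the epithelial transcription factor HNF1 drives their expression, and the tumour suppressor p53 also induces them. In the kidney miR-192 is known for its link to transforming growth factor beta (TGF-beta), which has been reported to raise it in mesangial cells and to lower it in tubular cells, and for repressing ZEB1 and ZEB2, which are repressors of epithelial genes. In bulk cortex, fewer tubule cells and less of a miRNA in each cell cannot be told apart.

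The mature sequences are shown because they decide which members share targets and which can be mistaken for each other on an array. All 5 members were matched to RefSeq (GRCr8), and the capitals mark the seed, bases 2 to 8 from the 5′ end, which pairs with target messages.
miR-192-5p: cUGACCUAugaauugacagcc
miR-215: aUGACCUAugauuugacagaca
miR-194-5p: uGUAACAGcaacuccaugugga
miR-192-3p: cUGCCAGUuccauaggucacag
miR-194-3p: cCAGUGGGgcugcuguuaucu
Of 693 mature names in the table, only miR-192-5p and miR-215 carried the seed UGACCUA. Over 21 aligned bases they were identical at 18, and the differences from miR-192-5p to miR-215 were C1A, A12U and C20A, counted from the 5′ end. The seed of miR-194-5p occurred under no other name, so it is a different family from miR-192 by target pairing although its gene is a neighbour.

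The genes lie in pairs. The hairpins of Mir194-2 (chr1:212994024-212994108, plus strand) and Mir192 (chr1:212994209-212994318, plus strand) are separated by 100 bases in GRCr8, outside the spans of the coding genes and between Atg2a and Ehd1. The hairpins of Mir194-1 (chr13:99382716-99382798, plus strand) and Mir215 (chr13:99382990-99383086, plus strand) are separated by 191 bases, and both lie within the span of Iars2. The 2 hairpins of chromosome 1 are shown because each gave 2 measured members, whose sequences are in capitals.
Mir194-2 hairpin: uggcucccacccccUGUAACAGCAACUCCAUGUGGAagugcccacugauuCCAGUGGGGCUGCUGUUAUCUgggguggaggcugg
Mir192 hairpin: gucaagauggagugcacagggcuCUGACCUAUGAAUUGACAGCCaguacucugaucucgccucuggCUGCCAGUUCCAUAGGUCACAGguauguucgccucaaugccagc
Both copies of miR-194 yield the same miR-194-5p, so its signal cannot be divided between the chromosomes. miR-192-5p and miR-192-3p come from a single gene, and miR-194-3p was matched to the copy on chromosome 1.

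All arrays were on 1 slide, with each group in its own column and replicates 1 and 2 in rows 1 and 2, so column and group cannot be told apart. Between 208 and 264 miRNAs were detected on an array and no miRNA spot was saturated. DOCA replicate 2 and DOCA-EVs replicate 2 had low hybridisation controls (signals of 1529 and 1596 for a control that read 3221 to 3457 on the 6 others). The levels below are log2 of the background-subtracted signal after scaling each array to the 75th percentile of its detected probes, so they compare arrays and not one miRNA with another.

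rno-miR-192-5p, the guide strand of the Mir192 hairpin, was lower in both DOCA-salt groups than in both groups on standard diet. Its log2 level was 10.03 and 10.08 on the SHAM arrays, 10.27 and 10.31 on the UNX arrays, 9.52 and 9.77 on the DOCA arrays, and 9.41 and 9.55 on the DOCA-EVs arrays. Every UNX array was thus above every SHAM array, every array on standard diet was above every DOCA-salt array, and DOCA and DOCA-EVs overlapped. The group means ± SD (n = 2) were, from the highest, 10.29 ± 0.02 in UNX, 10.05 ± 0.04 in SHAM, 9.64 ± 0.18 in DOCA and 9.48 ± 0.10 in DOCA-EVs. The neighbours UNX and SHAM, SHAM and DOCA, and DOCA and DOCA-EVs did not pass the test against each other.

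rno-miR-194-5p, the guide strand of both Mir194 genes, had the same order of group means. Its log2 level was 9.57 and 9.56 on the SHAM arrays, 9.54 and 9.72 on the UNX arrays, 9.13 and 9.05 on the DOCA arrays, and 8.72 and 9.11 on the DOCA-EVs arrays. SHAM and UNX overlapped, as did DOCA and DOCA-EVs, while all arrays on standard diet were above all DOCA-salt arrays. The means were 9.63 ± 0.13 in UNX, 9.56 ± 0.01 in SHAM, 9.09 ± 0.05 in DOCA and 8.92 ± 0.27 in DOCA-EVs (SD, n = 2), and no neighbours in this order passed the test against each other.

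rno-miR-192-3p, the passenger strand of the Mir192 hairpin, gave a weak signal. Its measured log2 level was 4.63 and 4.71 on the SHAM arrays, 4.38 and 4.58 on the UNX arrays, 4.01 and 3.59 on the DOCA arrays, and 4.05 and 3.97 on the DOCA-EVs arrays. It was well above background on 1 of 2 SHAM arrays, on both UNX arrays and on no DOCA-salt array, so its level there is only a bound. The measured values again separated all arrays on standard diet from all DOCA-salt arrays.

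The remaining members could not be compared. miR-215, which shares the seed of miR-192-5p, was not well above background on any array, with measured log2 values from 3.19 to 4.42. miR-194-3p, the passenger strand from Mir194-2, was likewise not well above background on any array, with values from 2.76 to 4.06. The software still called miR-215 detected on 2 arrays and miR-194-3p on 3, never on both arrays of a group. Only bounds are available for both in all 4 groups, so no fold is given.

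**Figure D1:**
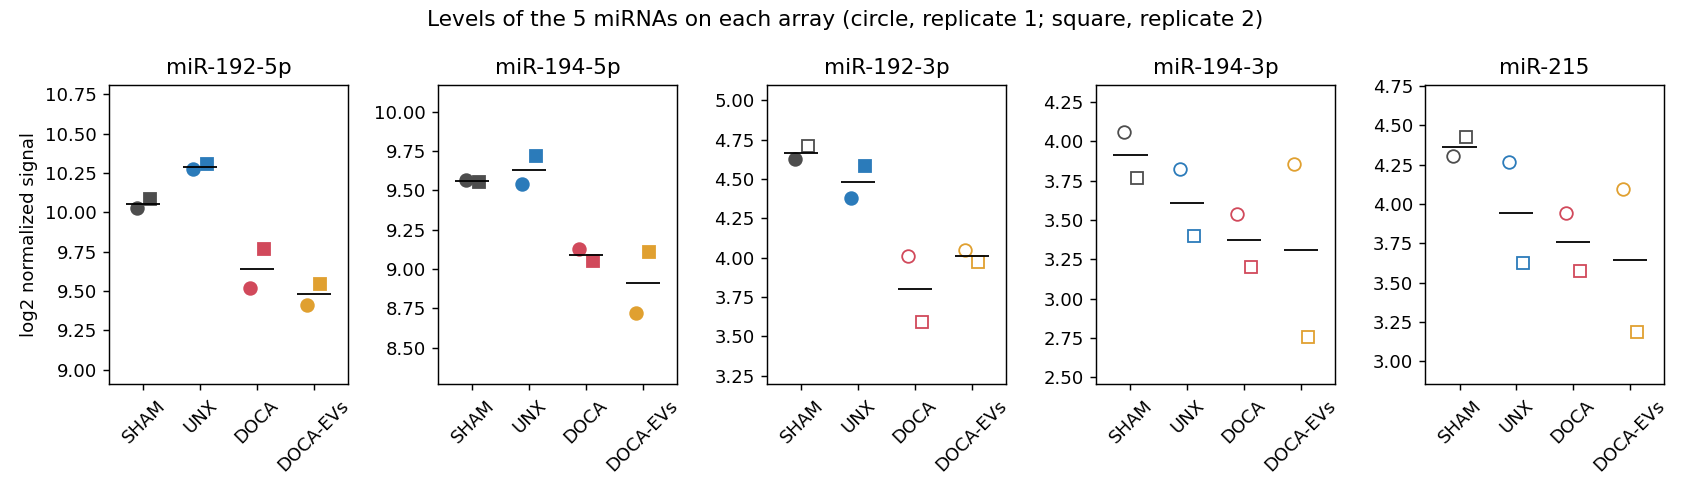
Log2 normalized signal of each miRNA on each array, by group, with horizontal lines at the group means. Circles are replicate 1 and squares replicate 2. Filled symbols were well above background. All panels span the same number of log2 units. miR-192-5p lay between 10.03 and 10.31 on standard diet and between 9.41 and 9.77 under DOCA-salt.

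The comparison of UNX with SHAM addresses nephrectomy at standard sodium, with oil injections described for UNX only. In the limma fit, 0 of the 3 tested members passed an adjusted p of 0.05, and 0% of all 242 miRNAs did, although 16 had an unadjusted p under 0.05. miR-192-5p was 0.24 ± 0.14 higher in UNX on the log2 scale (SE, n = 2 against 2, 95% interval −0.10 to 0.57, limma adjusted p = 0.63). Its arrays did not overlap, as was the case in the same direction for 25.2% of all miRNAs. The difference of miR-194-5p was 0.07 ± 0.17 (limma adjusted p = 0.846), and that of miR-192-3p was −0.19 ± 0.18 (limma adjusted p = 0.661). The arrays of miR-192-3p did not overlap either and were lower in UNX, like those of 47.5% of all miRNAs. The intervals of all 3 members included 0.

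DOCA against UNX addresses the hormone and high sodium among nephrectomized rats, with intravenous vehicle described for DOCA only. The 3 tested members all had lower measured values in DOCA, and their arrays did not overlap, which was so in the lower direction for 20.7% of all miRNAs. In limma 0 of the 3 passed, against 1.65% of all miRNAs (0.413% as lower), and all 3 had an unadjusted p under 0.05. miR-192-5p differed by −0.65 ± 0.14 (SE, 95% interval −0.98 to −0.31, limma adjusted p = 0.0626), a level 36.2% lower. miR-194-5p differed by −0.54 ± 0.17 (95% interval −0.94 to −0.14, limma adjusted p = 0.12), a level 31.2% lower. miR-192-3p was at least 1.05-fold lower (limma adjusted p = 0.0852). The median log2 difference of the 3 was −0.65, beside 0.08 over all miRNAs tested. Within slide row 1 the differences of miR-192-5p and miR-194-5p were −0.76 and −0.41, and within row 2 they were −0.54 and −0.67. Whether miR-192-5p passed depended on which arrays were used. Its difference stayed at −0.65 by construction without DOCA-EVs replicate 1 or replicate 2, which are in neither group. Only the spread shared by all groups changed there (SE 0.12 beside 0.14). Its difference was −0.77 without both arrays of low hybridisation control. Over the single arrays left out, its adjusted p ranged from 0.0486 to 0.31.

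DOCA-EVs against DOCA addresses the vesicles. In limma 0 of 3 members passed, as did 0% of all miRNAs, of which 25 had an unadjusted p under 0.05. miR-192-5p differed by −0.16 ± 0.14 (95% interval −0.50 to 0.17, limma adjusted p = 0.867) and miR-194-5p by −0.17 ± 0.17 (95% interval −0.58 to 0.23, limma adjusted p = 0.902). The groups overlapped for both, while 11.6% of all miRNAs had arrays that were lower with vesicles and did not overlap. These intervals leave room for a shift of either sign, up to 0.17 and 0.23 higher on the log2 scale with vesicles. Without scaling between arrays both values turned positive (0.28 and 0.27), a setting in which the median of all miRNAs also moved to 0.44. For miR-194-5p the sign also differed between slide row 1 (−0.40) and row 2 (0.06), and without DOCA-EVs replicate 1 the difference was 0.02. miR-192-3p was not above background in either group.

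The comparisons of single DOCA-salt groups with the other controls gave 1 call among the members. In DOCA-EVs against UNX, miR-192-5p fell by 0.81 ± 0.14 on the log2 scale (SE, 95% interval −1.15 to −0.48, limma adjusted p = 0.0404), a level 43.0% lower. That was 1 of 3 members, where 2.48% of all miRNAs passed (0.413% as lower), and within rows 1 and 2 the differences were −0.86 and −0.76. Leaving out any of the 8 arrays ended this call, with adjusted p from 0.0772 to 0.285 and differences from −0.88 to −0.74. miR-194-5p differed by −0.71 ± 0.17 there (limma adjusted p = 0.102), and miR-192-3p was at least 1.31-fold lower (0.358). Of all miRNAs, 15.3% had arrays that did not overlap and were lower in DOCA-EVs than in UNX, as all 3 members were.

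Against SHAM, the differences of DOCA were −0.41 ± 0.14 for miR-192-5p (limma adjusted p = 0.211) and −0.47 ± 0.17 for miR-194-5p (0.239). For miR-192-3p the level in DOCA was 1.2-fold lower by the rule for dim groups given below (0.0648 for the fitted difference). In DOCA-EVs the corresponding values were −0.58 ± 0.14 (0.122) and −0.65 ± 0.17 (0.137), and miR-192-3p was 1.49-fold lower by that rule (0.159). With 1 SHAM array above background for miR-192-3p, these folds are no strict bounds. In limma 0 of 3 members passed in either comparison, where 0.826% of all miRNAs passed in DOCA against SHAM and 0% in DOCA-EVs against SHAM. All 3 members had an unadjusted p under 0.05 in both, as did 39 and 32 of all miRNAs. The arrays of the 3 members did not overlap in either, as held for 40.1% and 19.8% of all miRNAs in the lower direction. DOCA and DOCA-EVs rats differ from SHAM rats in nephrectomy and injections as well as in hormone and sodium, and DOCA-EVs rats also in vesicles. Comparisons that share a group share its arrays and are not independent.

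With both DOCA-salt groups set against both standard-diet groups, 4 arrays against 4, all 3 tested members passed as lower. SHAM rats were not nephrectomized, so this comparison mixes nephrectomy with the hormone and high sodium. It also mixes in the vesicles, given to DOCA-EVs rats only, and the injections, which differed between groups as described above. In limma 6.61% of all miRNAs passed, 2.07% as lower, so the members were 3 of the 5 miRNAs called lower. miR-192-5p fell by 0.61 ± 0.10 on the log2 scale (SE, 95% interval −0.85 to −0.37, limma adjusted p = 0.0236), a level 34.5% lower. miR-194-5p fell by 0.59 ± 0.12 (95% interval −0.88 to −0.31, limma adjusted p = 0.0418), a level 33.7% lower. miR-192-3p was 1.25-fold lower by the rule for dim groups given below (limma adjusted p = 0.0406 for the fitted difference). It was well above background on 3 of 4 arrays on standard diet and on 0 of 4 under DOCA-salt, so this fold is no strict bound. For all 3 the arrays did not overlap, a pattern that 4.13% of all miRNAs showed in the lower direction.

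The 2 bright members were also tested singly. In two-sided exact permutation tests of 4 arrays against 4, miR-192-5p and miR-194-5p each gave p = 0.0286, the smallest p this design allows, and the level was lower in all DOCA-salt arrays. That value follows from the lack of overlap already given, so it is no separate support, and it is not adjusted. Scaling to the 75th percentile of all probes instead gave an exact permutation p of 0.0571 for miR-192-5p. Within slide rows 1 and 2 the pooled differences were −0.69 and −0.54 for miR-192-5p and −0.63 and −0.56 for miR-194-5p.

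These limma calls lay close to the threshold. That of miR-192-5p was lost without SHAM replicate 1 (adjusted p = 0.149), SHAM replicate 2 (0.181), UNX replicate 1 (0.0896) or UNX replicate 2 (0.0941), and remained when any single one of the 4 DOCA-salt arrays was left out. That of miR-194-5p remained only without DOCA-EVs replicate 1 (0.0355) or replicate 2 (0.0168) and was lost without each of the 6 other arrays (0.0624 to 0.223). That of miR-192-3p remained without DOCA replicate 1 (0.036) or DOCA-EVs replicate 1 (0.0436) and was lost without each of the 6 others (0.0688 to 0.213). Without both arrays of low hybridisation control, miR-192-5p fell by 0.71 (adjusted p = 0.038), miR-194-5p differed by −0.67 (0.0536) and miR-192-3p by a fitted −0.54 (0.0694). The direction was the same in all of these.

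**Figure D2:**
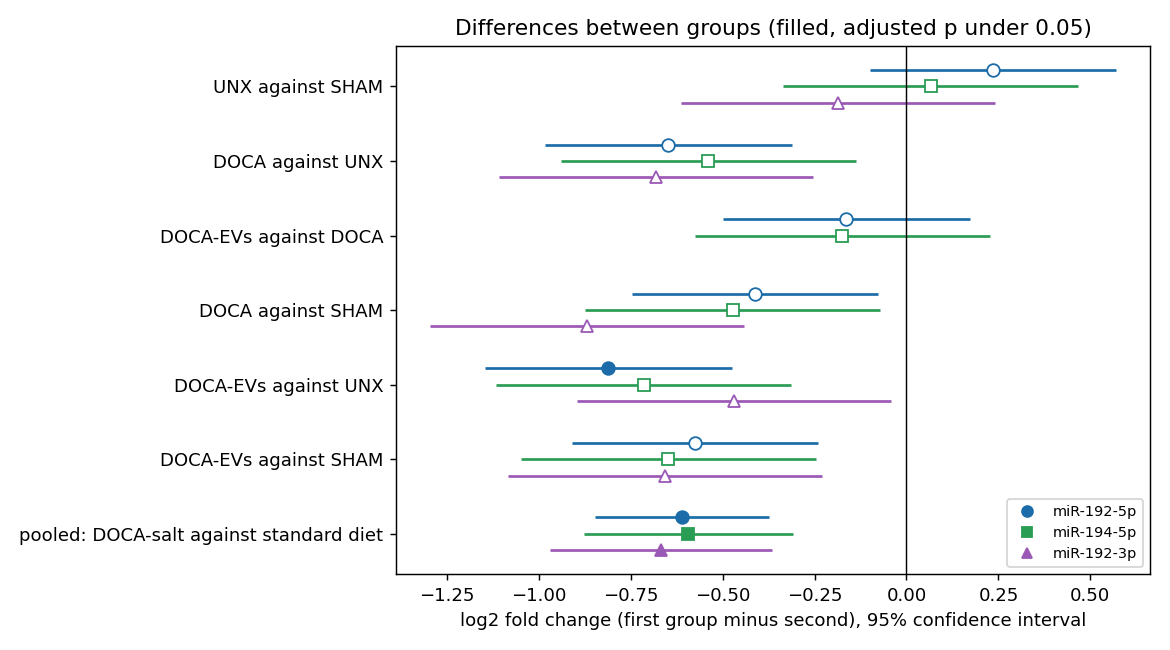
Log2 fold changes (first group minus second) of the 3 tested members with 95% confidence intervals from the limma fit. Filled symbols have an adjusted p under 0.05. miR-192-3p is left out of DOCA-EVs against DOCA, where it was not above background in either group, and its other values were fitted to signals partly below background. Filled symbols occur for all 3 members in the pooled comparison and for miR-192-5p in DOCA-EVs against UNX.

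Each bright member was measured by 2 probes with 8 spots per array, which differed in the same direction. For miR-192-5p the probe means ranged over arrays from 229 to 437 and from 452 to 830 normalized units, with median coefficients of variation between spots of 4.28% and 7.62%. For miR-194-5p they ranged from 305 to 590 and from 117 to 253, with median coefficients of 9.82% and 6.88%. In DOCA against UNX the log2 differences were −0.66 and −0.64 for the probes of miR-192-5p and −0.55 and −0.52 for those of miR-194-5p. In the pooled comparison they were −0.66 and −0.59, and −0.58 and −0.63. The arrays did not overlap for any of these 4 probes in either comparison. For miR-192-3p only the brighter probe was ever well above background, and on no DOCA-salt array, so no difference per probe is given.

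**Figure D3:**
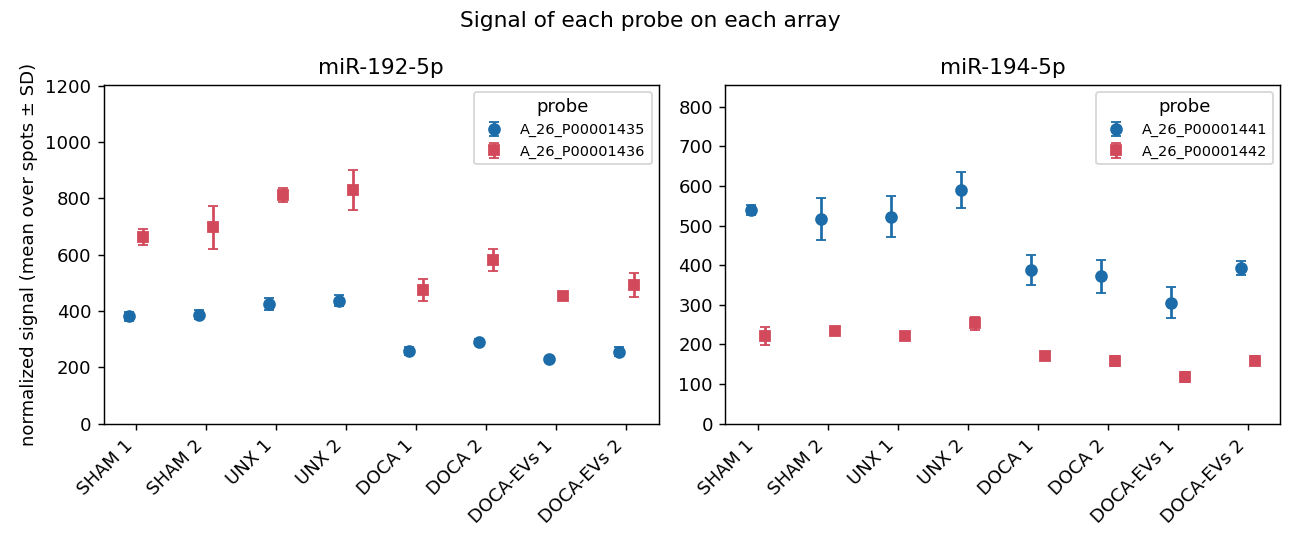
Normalized signal of the 2 probes of miR-192-5p and of miR-194-5p on each array, as the mean over spots, with the SD between the spots of that array as error bars. The vertical axes start at 0. Each of the 4 probes was lower on all DOCA-salt arrays than on all arrays on standard diet.

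The bright members differed between the DOCA-salt and standard-diet groups by similar amounts although they lie in different seed families. The log2 signal of miR-192-5p minus that of miR-194-5p on the same array, in which the array scaling cancels, was 0.46 and 0.53 in SHAM, 0.73 and 0.59 in UNX, 0.39 and 0.72 in DOCA, and 0.69 and 0.44 in DOCA-EVs. Its SD over the 8 arrays was 0.13, beside 0.35 for miR-192-5p itself. Both UNX arrays were above both SHAM arrays in this difference, and the DOCA and DOCA-EVs arrays overlapped each other and both other groups. Within SHAM, UNX, DOCA and DOCA-EVs the SD of the difference was 0.048, 0.10, 0.23 and 0.18. That was above the 0.038, 0.024, 0.18 and 0.095 of miR-192-5p itself. The SDs of miR-194-5p were 0.010, 0.13, 0.053 and 0.27, so the difference varied less than miR-194-5p in UNX and DOCA-EVs. The correlation of their levels was 0.93 over 8 arrays, a description that includes the difference between DOCA-salt and standard-diet groups and the shared scaling. The difference between both strands of the Mir192 hairpin, miR-192-5p minus miR-192-3p, was 5.40 and 5.37 in SHAM, 5.89 and 5.72 in UNX, 5.50 and 6.18 in DOCA, and 5.36 and 5.57 in DOCA-EVs. It varied more (SD 0.29), with miR-192-3p not above background on 5 of the 8 arrays.

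Among 190 other miRNAs detected on all 8 arrays, those whose levels followed miR-192-5p most closely by Pearson correlation were miR-204-5p (0.84), let-7g-5p (0.82), miR-29c-3p (0.81), miR-143-3p (0.80) and miR-27b-3p (0.80). For miR-194-5p they were miR-143-3p (0.91), miR-204-5p (0.87), miR-30b-5p (0.84), miR-193a-3p (0.84) and miR-26b-5p (0.77). None of these passed the test in DOCA against UNX or in the pooled comparison. The closest miRNA to miR-192-5p, miR-204-5p, is known as an epithelial miRNA of the kidney, and its pooled log2 difference was −0.28 ± 0.12 (limma adjusted p = 0.218). For miR-143-3p, a smooth muscle miRNA, it was −0.30 ± 0.11 (0.16).

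The lowest correlations ran the other way. For miR-192-5p they were with miR-221-3p (−0.91), miR-155-5p (−0.89) and miR-92a-3p (−0.88), and for miR-194-5p with miR-221-3p (−0.97), miR-92a-3p (−0.93) and miR-34a-5p (−0.88). Of these, miR-221-3p rose by 0.94 ± 0.11 on the log2 scale under DOCA-salt in the pooled comparison (limma adjusted p = 0.00936). miR-155-5p, with levels of only 3.84 to 4.08 on standard diet, rose by 1.21 ± 0.12 (0.00887). miR-34a-5p, a p53 target, rose by 0.63 ± 0.08 (limma adjusted p = 0.0114), and miR-92a-3p did not pass (0.32 ± 0.09, 0.0966). In DOCA against UNX only miR-155-5p of these passed (1.38, limma adjusted p = 0.0182). The correlations describe 8 arrays that include both diets, and no test was made on them.

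**Figure D4:**
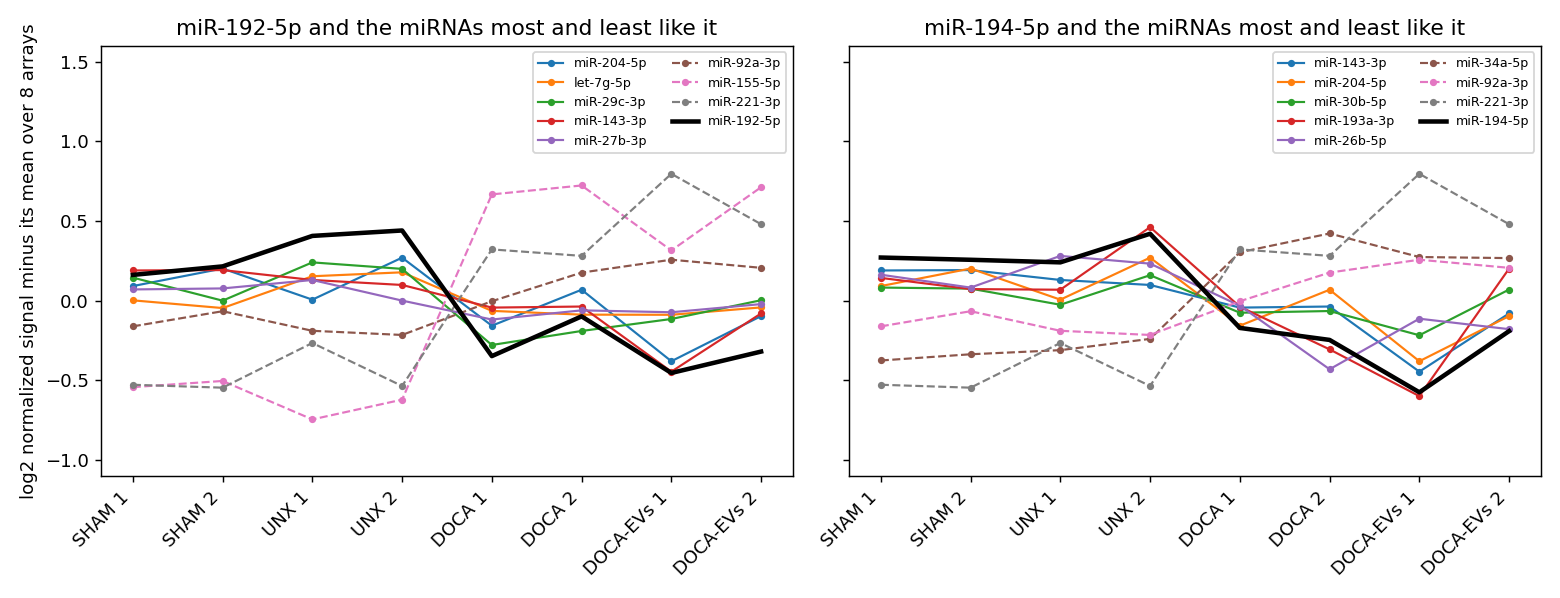
Log2 normalized signal minus its mean over the 8 arrays for miR-192-5p (left) and miR-194-5p (right), in black, with the 5 miRNAs of highest correlation (solid) and the 3 of lowest correlation (dashed). The reference miRNAs and miR-221-3p lie on opposite sides of 0 on all arrays.

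Other miRNAs enriched in kidney tubule or epithelium were compared as a list. Of 15 listed, 14 were on the array and 12 were tested. In DOCA against UNX 11 of the 12 had negative values, none passed, and the median log2 difference was −0.39 beside 0.08 over all miRNAs. The lowest p belonged to miR-10a-5p (−0.47 ± 0.12, limma adjusted p = 0.0852), miR-10b-5p (−0.41 ± 0.12, 0.104) and miR-200b-3p (−0.40 ± 0.12, 0.12). In DOCA-EVs against DOCA 11 of the 12 had positive values, with a median of 0.23 beside 0.00 over all miRNAs, whereas miR-192-5p and miR-194-5p had negative values there. Both comparisons share the DOCA arrays, and the difference between the members and this list was not tested. In the pooled comparison 1 of the 12 passed, beside 6.61% of all miRNAs. This was miR-200c-3p of the epithelial miR-200 family, which rose by 0.61 ± 0.12 (limma adjusted p = 0.0472). miR-200c-3p was above background on 3 of 4 DOCA-salt arrays and 1 of 4 on standard diet. Its high values were those of DOCA-EVs, with a mean log2 level of 5.43 beside 4.31 in DOCA, 4.13 in UNX and 4.40 in SHAM. It passed in DOCA-EVs against UNX (1.30 ± 0.18, limma adjusted p = 0.0345), where 2.48% of all miRNAs did. It did not pass in DOCA against UNX (0.18 ± 0.18, 0.685) or DOCA-EVs against DOCA (1.12 ± 0.18, 0.0688). The median of the 12 was −0.18. In UNX against SHAM none passed and 9 were positive.

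Other miRNAs linked to HNF1 or HNF4, p53 and TGF-beta were compared as lists. The activity of these regulators was not tested. Of 4 miRNAs controlled by HNF1 or HNF4, miR-802-5p and miR-122-5p were too dim to be tested. Neither of the 2 tested passed in UNX against SHAM, DOCA against UNX or DOCA-EVs against DOCA. In DOCA against UNX miR-483-5p differed by 0.52 ± 0.17 (limma adjusted p = 0.121), and the measured mean log2 level of miR-483-3p was 4.59 in DOCA, where neither array was well above background, and 4.36 in UNX, where both were (0.815).

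Of 12 p53-responsive miRNAs, 11 were tested, and in DOCA against UNX 5 had positive and 6 negative values, with none past the threshold and a median of −0.10. The lowest p belonged to miR-34a-5p (0.64 ± 0.12, limma adjusted p = 0.0514), miR-29c-3p (−0.45 ± 0.13, 0.0985) and miR-34b-5p (0.216). By the rule for dim groups given below miR-34b-5p was 1.36-fold higher, no strict bound, with 1 DOCA array above background. In the pooled comparison 1 of the 11 passed, miR-34a-5p, which was higher under DOCA-salt, beside 6.61% of all miRNAs that passed. In UNX against SHAM and DOCA-EVs against DOCA none passed.

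Of 20 miRNAs linked to TGF-beta in kidney, 15 were tested. In DOCA against UNX 1 of them passed, beside 1.65% of all miRNAs. This was miR-132-3p (limma adjusted p = 0.0182 for the fitted difference), which was above background on 1 DOCA array and no UNX array. It was 1.36-fold higher by the rule for dim groups given below, which is no strict bound here. miR-21-3p, the passenger strand of the fibrosis-linked miR-21, was at least 2.45-fold higher (0.051), and miR-29c-3p, which represses collagen messages, is given with the p53 list. The median of the 15 was 0.18 in DOCA against UNX and 0.31 in the pooled comparison. In the pooled comparison 3 of the 15 passed as higher: miR-132-3p, miR-200c-3p and miR-21-3p. Of all miRNAs, 6.61% passed in it. The 3 were dim, being above background on 2, 4 and 5 of the 8 arrays. None of the 15 passed as lower in UNX against SHAM, DOCA against UNX, DOCA-EVs against DOCA or the pooled comparison. In UNX against SHAM and DOCA-EVs against DOCA none passed in either direction.

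Markers of the cells that cortex can hold were summed on each array. The 4 tubule and epithelial markers outside the family were miR-204-5p, miR-10a-5p, miR-200b-3p and miR-30a-5p, detected on all arrays. Their summed log2 level was 12.48 to 12.69 on standard diet. It was 12.24 and 12.30 on the DOCA arrays, below every array on standard diet as for the members. On the DOCA-EVs arrays it was 12.42 and 12.67, which overlapped that range. The brighter markers set most of this sum. In DOCA-EVs against DOCA the dim miR-204-5p differed by −0.19, while the others differed by 0.18 to 0.39. For 7 leukocyte miRNAs, of which 5 were detected on all arrays and miR-142-5p on none, the sum was 9.30 to 9.37 on standard diet and 9.55 to 9.97 under DOCA-salt, without overlap. For 5 endothelial and smooth muscle miRNAs, of which 3 were detected on all arrays and miR-145-3p on none, it was 11.25 to 11.29 and 10.90 to 11.22, also without overlap. Their part in the lower levels of miR-192-5p, miR-194-5p and miR-192-3p was not tested. Of single miRNAs, 4.13% had arrays that did not overlap and were lower under DOCA-salt, and the share that was higher was not counted. No test was made on any marker sum. The sum of 3 erythrocyte miRNAs, of which 1 was detected on all arrays, overlapped (7.93 to 8.37 and 6.87 to 8.76). miR-122-5p, which defines liver, another tissue rich in miR-192, was detected on no array. The sum of 5 striated muscle miRNAs, of which miR-1-3p, miR-133a-3p and miR-208a-3p were detected on no array, was 6.01 to 6.71 on standard diet and 5.86 to 6.51 under DOCA-salt. That of 4 nerve and endocrine miRNAs, of which 3 were never above background and the neuronal miR-124-3p was never detected, was 5.33 to 5.69 and 4.56 to 5.26, without overlap.

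The scaling between arrays set the size of the differences. Over 6 scalings, DOCA against UNX ranged from −1.23 to −0.57 for miR-192-5p and from −1.12 to −0.54 for miR-194-5p. The median of all miRNAs moved from 0.08 in the main scaling to −0.50 without scaling. Relative to that median the ranges were narrower, −0.72 to −0.55 for miR-192-5p and −0.62 to −0.52 for miR-194-5p. In the pooled comparison miR-192-5p ranged from −0.81 to −0.52 and passed in 5 of 6 scalings, and miR-194-5p ranged from −0.79 to −0.55 and passed in 4 of 6. miR-192-3p was negative in all 6 and passed in 2.

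**Figure D5:**
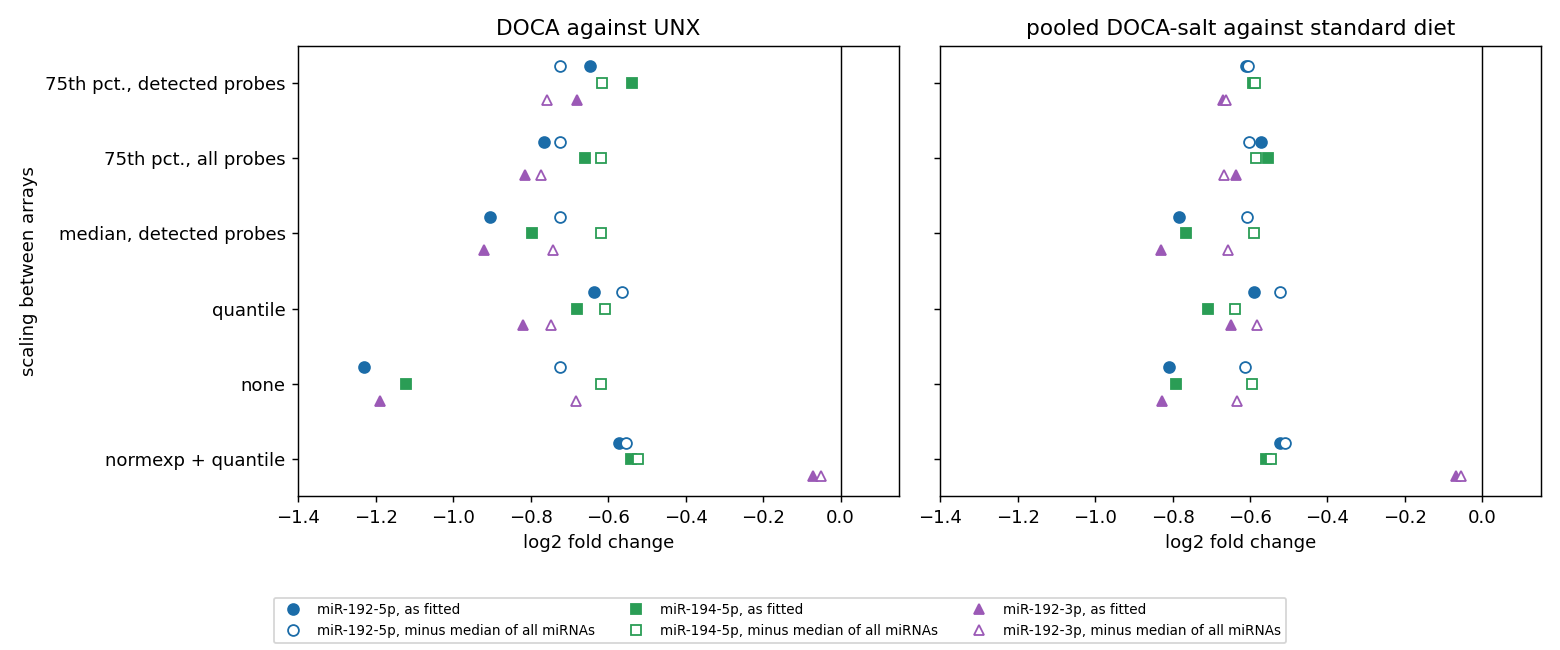
Log2 fold changes of the 3 tested members under 6 scalings between arrays, for DOCA against UNX (left) and both DOCA-salt groups against both standard-diet groups (right). Filled symbols are as fitted and open symbols are relative to the median of all miRNAs under the same scaling. All symbols lie below 0, and miR-192-3p lies near 0 under normexp, which adds an offset of 50 to every signal.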

How the data were processed

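Per the file headers, 1 slide of design 070154 was scanned and read by the authors with Agilent Feature Extraction 11.5.1.1, protocol miRNA_1105_Oct12. Each array received 100 ng of RNA. The intensity used was the deposited processed signal of each spot, from which the software had subtracted background. No normalization between arrays had been applied to it. The intensity values in the series table were identical (largest difference 0). Flags of 0 or 1 for detection, background and outlying spots were used as deposited.

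Unflagged spots were averaged per probe and divided by the array's 75th percentile over the 271 probes detected on all arrays. Probe values under 2.57, the mean SD of the negative controls, were set to it. Probes of a miRNA were summed and log2 was taken from the deposited intensity values. For a miRNA to count as well above background on an array, a probe of it needed 0.5 or more of its unflagged spots marked so. Tested were the 242 of 758 miRNAs that the software detected on both arrays of 1 group or more. The remaining 516 were left out, and 192 were detected on all 8 arrays.

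Group means over all 8 arrays were fitted with limma 3.58.1 (R 4.3.3; residual degrees of freedom 4, prior 2.18). The 7 comparisons were tested two-sided at an adjusted p of 0.05, with p-values adjusted by Benjamini-Hochberg across all 242. Tables and exact permutation tests used Python 3.11.15 and scipy 1.17.1. With 2 arrays against 2 the smallest exact permutation p is 0.333, so only 4 against 4 was tested this way, for 2 members. Where a group had no array above background, a fold is given by a rule for dim groups. It sets the mean of the brighter group against the mean, per array of the dim group, of the lowest signal well above background or the miRNA's own, whichever was higher. The fold is a lower bound, "at least N-fold", where all arrays of the brighter group were above background. Where some were not, their measured values enter the mean and the fold is no strict bound. The adjusted p beside a fold is that of the fitted difference. Precision is limited by the few arrays, and for 2 against 2 the 95% intervals had a median half-width of 0.47 log2 units. The fitting code was tested on simulated data.

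Same-numbered arrays deviated together in all 6 pairs of groups (r from 0.24 to 0.56); the numbers are those of the labels and coincide with slide rows. The members and lists were chosen with earlier results of these data known. The named miRNAs are all members, the 5 most and 3 least correlated with each bright member, and the 3 of each list with the lowest p in DOCA against UNX. Other list members that passed were named after their values were seen. The background correction planned on mean spot signals was run on median spot signals instead. The genome build named in the headers differs from GRCr8, so positions come from RefSeq alone. Alternatives covered scaling, background, probe summary, floor, filter, slide row as a block, array weights and left-out arrays.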

Additional observations from a re-analysis of the deposited data

How the results depend on the processing

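Directions of miR-192-5p and miR-194-5p under DOCA-salt held in the settings tried in all comparisons with SHAM or UNX, while calls moved. Values are log2 differences with limma adjusted p in parentheses, fitted ones for miR-192-3p. With slide row as a replicate block, no call changed for a member: in the pooled comparison the adjusted p was 0.0191 for miR-192-5p (−0.61), 0.041 for miR-194-5p (−0.59) and 0.041 for miR-192-3p (−0.67), and in DOCA-EVs against UNX it was 0.0344 for miR-192-5p (−0.81). The block raised the count of all calls in DOCA-EVs against SHAM from 0 to 5.

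Pooled calls were lost as follows. Scaling to all probes gave −0.57 (0.225) for miR-192-5p, −0.55 (0.25) for miR-194-5p and −0.64 (0.127) for miR-192-3p, and the exact permutation p of miR-192-5p became 0.0571. Testing all 758 miRNAs with no filter gave −0.61 (0.0724), −0.59 (0.161) and −0.67 (0.161). No scaling gave −0.79 (0.112) for miR-194-5p and −0.83 (0.127) for miR-192-3p. Leaving out both arrays of low hybridisation control, a setting chosen after seeing the data, gave −0.67 (0.0536) and −0.54 (0.0694). miR-192-3p alone was lost with quantile normalization (−0.65, 0.0988), the software's total signal (−1.18, 0.0814), a floor of 1 (−0.71, 0.0529) and normexp (−0.068, 0.149), whose offset compresses dim signals. The call of miR-192-5p in DOCA-EVs against UNX was lost with all-probe scaling (−0.93, 0.28), quantile normalization (−0.81, 0.059), no scaling (−0.95, 0.239), no filter (−0.81, 0.124), array weights (−0.81, 0.129), the arrays of both groups alone (−0.81, 0.349) and without both arrays of low control (−0.88, 0.0705). The filter and the arrays of both groups alone leave the differences themselves unchanged by construction. The cause of the lost calls was not tested.

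Calls were gained in DOCA against UNX by scaling to the median of detected probes (miR-192-5p −0.90, 0.023; miR-194-5p −0.80, 0.0332; miR-192-3p −0.92, 0.0332), by the total signal (miR-192-5p −0.96, 0.0144; miR-194-5p −0.85, 0.0368), and for miR-192-5p by normexp (−0.57, 0.00887), array weights (−0.65, 0.0439) and without both arrays of low control (−0.77, 0.0349). In DOCA against SHAM miR-192-3p passed with the median scaling (−1.07, 0.047) and array weights (−0.87, 0.0175). Against SHAM, DOCA-EVs passed under normexp for miR-192-5p (−0.47, 0.0204) and miR-194-5p (−0.58, 0.0497), and miR-194-5p passed against UNX with the total signal (−0.98, 0.0408).

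Reversals concerned values that were not called. miR-192-3p in UNX against SHAM became 0.13 with all-probe scaling, 0.14 with quantile normalization, 0.14 without scaling and 0.0069 with normexp. Without scaling DOCA-EVs against DOCA became 0.28 for miR-192-5p and 0.27 for miR-194-5p. The difference of miR-192-5p minus miR-192-3p, DOCA minus UNX, did not reverse but was 0.41 with the total signal where the sum of probes gave 0.03. On DOCA replicate 2 it was 7.41 with the total signal and 6.18 with the sum of probes, and on DOCA replicate 1 5.92 and 5.50. The software did not call miR-192-3p detected on DOCA replicate 2.

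Within slide rows 1 and 2, miR-192-3p gave −0.62 and −1.12 in DOCA against SHAM, −0.37 and −0.99 in DOCA against UNX, −0.58 and −0.73 in DOCA-EVs against SHAM, −0.33 and −0.61 in DOCA-EVs against UNX, and −0.47 and −0.86 pooled. miR-194-5p gave −0.41 and −0.67 in DOCA against UNX, −0.40 and 0.055 in DOCA-EVs against DOCA, −0.85 and −0.45 in DOCA-EVs against SHAM, and −0.030 and 0.16 in UNX against SHAM.

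Leaving out single arrays, differences ranged pooled from −0.67 to −0.55 for miR-192-5p, −0.69 to −0.50 for miR-194-5p and −0.77 to −0.56 for miR-192-3p. In DOCA against UNX the ranges were −0.77 to −0.52, −0.63 to −0.45 and −0.89 to −0.47. In DOCA-EVs against UNX they were −0.88 to −0.74, −0.91 to −0.52 and −0.57 to −0.37. In UNX against SHAM they were 0.21 to 0.26, −0.023 to 0.16 and −0.29 to −0.09. In DOCA-EVs against DOCA they were −0.29 to −0.04 and −0.37 to 0.018 for miR-192-5p and miR-194-5p. In DOCA against SHAM they were −0.54 to −0.29, −0.51 to −0.44 and −1.08 to −0.66, and in DOCA-EVs against SHAM −0.64 to −0.51, −0.84 to −0.46 and −0.70 to −0.62. A group left with 1 array was assumed to vary like the other groups.

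Over all settings the number of calls among all miRNAs ranged from 0 to 26 pooled (16 as reported), 0 to 20 in DOCA against UNX (4), 0 to 18 in DOCA against SHAM (2), 0 to 7 in DOCA-EVs against UNX (6), 0 to 8 in DOCA-EVs against SHAM (0), 0 to 5 in DOCA-EVs against DOCA (0) and 0 to 3 in UNX against SHAM (0). Groups of 2 arrays cannot be tested for an outlying array. Signal over background limits miR-194-3p and miR-215, for which no comparison was possible, and miR-192-3p.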
